A study of Mus musculus with 18 samples.

Results

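NRF2, the product of *Nfe2l2*, is a transcription factor that KEAP1 marks for degradation until oxidants or electrophiles modify KEAP1. Stabilised NRF2 pairs with a small MAF protein on antioxidant response elements and raises the genes that make, use and recycle glutathione and thioredoxin, while BACH1 competes for the same elements. In monocytes, macrophages and dendritic cells this programme buffers the oxidants that the cells themselves make. The 10 genes examined were *Nfe2l2* and the target genes *Nqo1*, *Gclc*, *Gclm*, *Txnrd1*, *Srxn1*, *Slc7a11*, *Gsr*, *Prdx1* and *G6pdx*, chosen by gene symbol. 9 of the 10 had values among the 20298 genes of the table, and *G6pdx* was not analysed here.

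RNA was sequenced from 18 libraries in 6 groups of 3, taken from mice of 2 genotypes, WT and DKI, with the strain C57BL/6 in the labels (C57BL/6J for DKI in the study's methods). DKI animals carry N-domain knockin mutations in both *Stat5a* and *Stat5b*, with which STAT5 still forms dimers but no tetramers. RNA levels do not show these point changes, so the genotype labels were not checked by them. For each genotype, Ly6C+ CCR2+ monocytes were taken either untreated (day 0) or after 3 or 6 days in 20 ng/mL GM-CSF, the cytokine that turns monocytes into monocyte-derived cells (MDCs). All MDC cultures also held β-mercaptoethanol, a reducing agent, and the day 0 cells were not cultured, so the effects of GM-CSF and of culture cannot be told apart. Monocytes were enriched from bone marrow with either of a pair of kits, and which library had which kit is not given in the sources used here. Levels are given as RPKM, that is, reads scaled to the length of the gene and to the mapped reads of the library. Replicates 1, 2 and 3 are numbered in the labels, and the study describes its data as combined from independent experiments. Which animals each library came from is not given in the sources used here, so p-values measure the spread between these libraries.

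The libraries held 28.8 to 42.3 M assigned reads (median 35.2 M). The sample labels name liver as the tissue, but the 5 hepatocyte markers summed to at most 0.047 RPKM in any library, and the 6 monocyte markers to between 3061 and 4316 RPKM on day 0. The 6 dendritic cell markers summed to 3740 to 10072 RPKM in WT MDCs and 87.1 to 288 RPKM in DKI MDCs, and the 6 macrophage markers to 259.4 to 642.5 RPKM and 1314 to 4211 RPKM. The 7 neutrophil markers summed to 867.2 to 1251 RPKM on day 0 and to anything between 2.68 and 535.3 RPKM in MDC libraries. The 6 lymphocyte markers summed to 2.31 to 10.1 RPKM in DKI MDCs and 0.512 to 3.04 RPKM in WT MDCs, and the erythroid markers (4 of 6 measured) to at most 0.113 RPKM in MDCs. The 4 cycling markers summed to 323.8 to 511.7 RPKM on day 0 and 9.91 to 128.2 RPKM in MDCs. In bulk RNA, a change in the number of cells of a type and a change in RNA per cell cannot be told apart.

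The antioxidant response element is the sequence through which NRF2 acts, and its core TGACNNNGC was searched on both strands of the RefSeq promoter windows (GRCm38.p6, the assembly of mm10) that run from 250 bases before to 50 bases after a gene start. Windows were at hand for 8 of the 10 genes, and *Gclc* and *Gsr* had none. The core was present in 12.4% of all 32851 windows, and in 6 of the 10 windows of these genes, 1 each for *Nfe2l2*, *Srxn1*, *Gclm*, *Prdx1*, *Txnrd1* and *G6pdx*. Sites from 4 of these promoters are shown 5′ to 3′ on the strand of the gene, with the core (or its reverse complement) in capitals. They are shown as matches to the core, and whether NRF2 binds at these sites was not measured.
*Nfe2l2*, chr2:75704879-75704913, minus strand: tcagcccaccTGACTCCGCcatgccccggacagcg
*Gclm*, chr3:122245407-122245447, plus strand: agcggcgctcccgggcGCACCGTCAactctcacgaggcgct
*Prdx1*, chr4:116685450-116685490, plus strand: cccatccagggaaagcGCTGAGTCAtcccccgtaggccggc
*Txnrd1*, chr10:82859098-82859138, plus strand: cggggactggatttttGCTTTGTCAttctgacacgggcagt

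The *Slc7a11* and *Nqo1* windows did not hold this core. Sequence outside the windows was not searched, so this does not show that either gene lacks the core. The *Slc7a11* window held TGATGNAA on each strand, the form of the amino acid response element, through which ATF4 acts. This motif was present in 3.97% of all windows and in none of the other members' windows. It is shown because *Slc7a11* differed most between the genotypes. The run covers bases -82 to -24 from the RefSeq start site of the window, with both matches in capitals. The windows shown for *Slc7a11* and *Txnrd1* belong to start sites that lie inside the wider gene spans given below.
*Slc7a11*, chr3:50443637-50443695, minus strand: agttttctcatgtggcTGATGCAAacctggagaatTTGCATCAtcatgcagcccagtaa
A match is a run of letters, and binding was not measured.

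*Nfe2l2* (chromosome 2, 75675513 to 75704663, in mm10 as are all positions given here) had group means between 132.5 and 182.1 RPKM. WT monocytes had 198.3, 170.8 and 97.2 RPKM in replicates 1, 2 and 3 on day 0, and DKI monocytes had 200, 145.5 and 101.2 RPKM. On day 3 the WT values were 157.4, 168.9 and 219.9 RPKM and the DKI values 177.6, 129.8 and 162.3 RPKM. On day 6 they were 180.1, 135.1 and 82.4 RPKM in WT and 176.8, 125.0 and 97.9 RPKM in DKI. The genotypes overlapped on every day, and the 6 group means spanned 0.51 on the log2 scale. DKI minus WT was -0.05 (SE 0.35), -0.21 (SE 0.21) and 0.04 (SE 0.35) on days 0, 3 and 6, with limma adjusted p of 1, 0.565 and 0.953. The mRNA level does not report NRF2 protein, which is set largely by degradation.

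The first comparison asked whether the target genes differ between genotypes in untreated monocytes. No gene in the table was called on day 0 by limma (0% of 9179, 44 at an unadjusted p under 0.05), where a call needs an adjusted p under 0.05 and a change above 1.5-fold, and none when the replicate number was added to the fit as a block (0%, 352 at an unadjusted p under 0.05). The differences of the 9 genes lay between -0.05 and 0.09 on the log2 scale. Within same-numbered pairs the DKI level was between 0.767 and 1.42 times the WT level, both extremes being those of *Slc7a11*.

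*Srxn1*, which encodes sulfiredoxin, the enzyme that reactivates overoxidised peroxiredoxins, varied widely between replicates but little within pairs. It had 39.7, 170.6 and 9.64 RPKM in WT replicates 1 to 3 on day 0 and 43.3, 179.2 and 9.47 RPKM in DKI. The same genotype therefore covered a 17.7-fold (WT) or 18.9-fold (DKI) range, and the pairs differed with an SD of 0.07 on the log2 scale. *Slc7a11* also varied widely between replicates, with 25, 8.83 and 1.04 RPKM in WT and 25.4, 6.77 and 1.48 RPKM in DKI, but replicate 1 and not replicate 2 was its highest.

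The spread between replicates was wider for these genes than for most of the table. On day 0 their median SD within groups was 0.71 on the log2 scale, against 0.24 over all 9179 genes tested, and each of the 9 lay above the median of all genes. On day 3 the medians were 0.92 and 0.26 with 8 of 9 above, and on day 6 they were 0.72 and 0.26 with 9 of 9 above. The SD of the differences within same-numbered pairs was close to that of all genes, with medians of 0.12 against 0.1 on day 0, 0.38 against 0.3 on day 3 and 0.29 against 0.27 on day 6. A second fit, blocked on replicate number, accompanies the plain fit wherever it changes a call of the 9 genes.

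**Figure D1:**
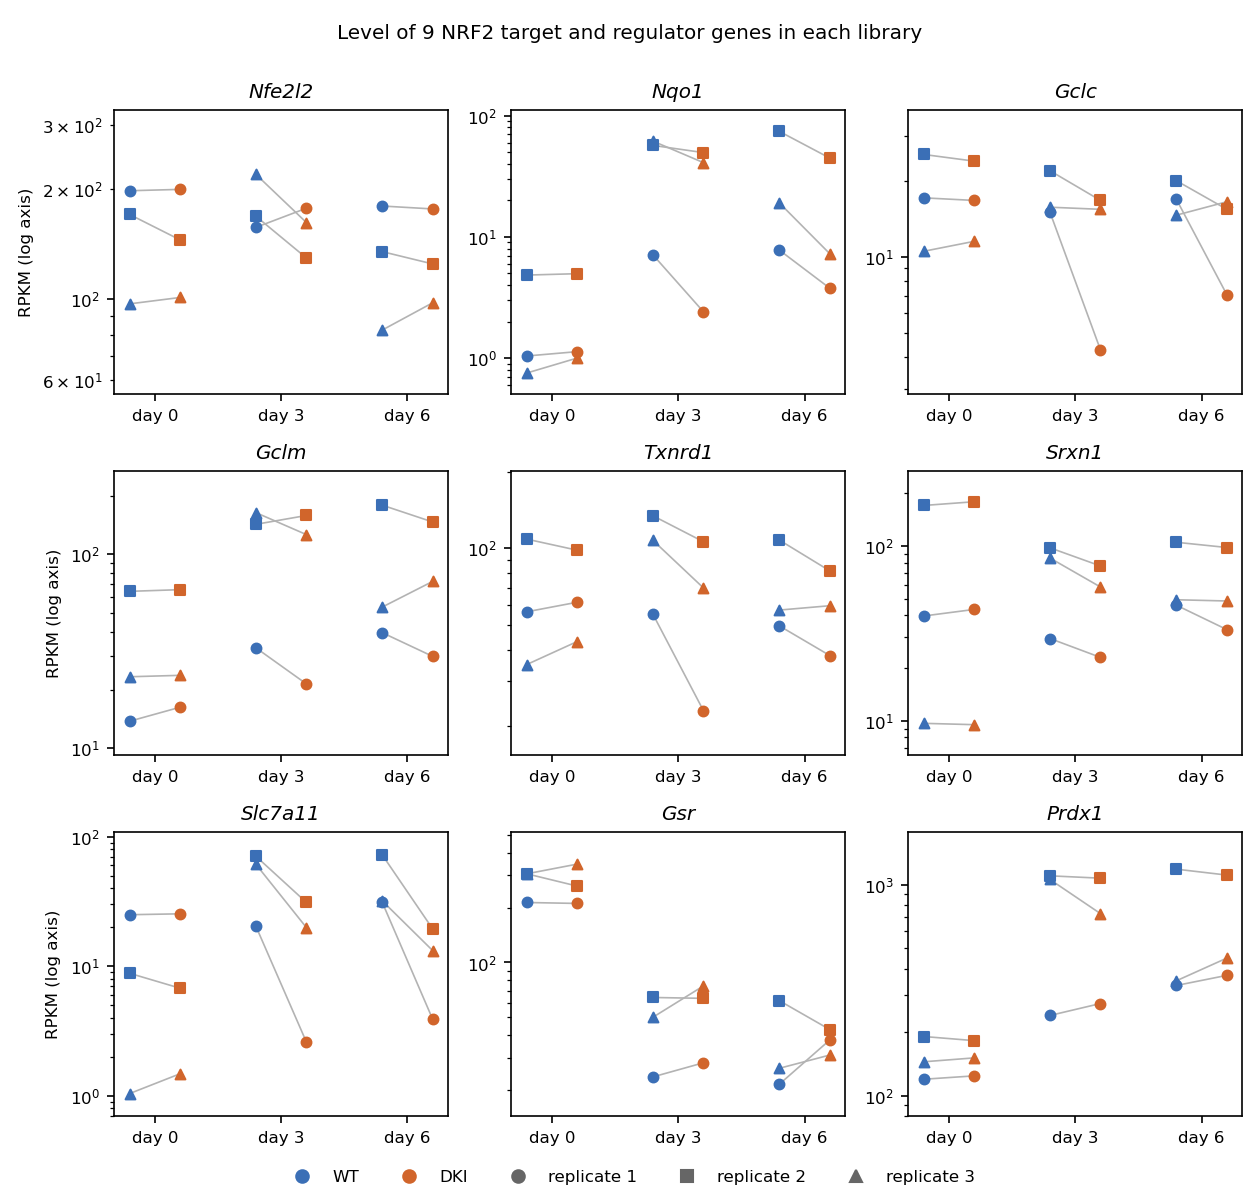
RPKM (log axis) of the 9 measured genes in each of the 18 libraries, by day, with WT in blue, DKI in orange, symbols for replicates 1 to 3 and grey lines joining same-numbered WT and DKI libraries. On day 0 the *Srxn1* lines are nearly flat and far apart, whereas every *Slc7a11* line runs down from WT to DKI on days 3 and 6.

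The second comparison asked what 3 days with GM-CSF did to each genotype. Among the 9 genes, 2 were called higher and 1 lower in WT, where 43.1% of 9938 genes were called, 20.3% higher and 22.8% lower. In DKI 1 was called higher and 1 lower, where 34.2% of 9922 genes were called, 13.1% higher and 21.1% lower. These shares set the members apart in neither genotype. *Prdx1* was higher and *Gsr* lower in each genotype, and *Nqo1* was higher in WT. With the replicate block *Gclm* was also called higher in WT, where 3788 of 9938 genes were called.

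*Prdx1* (chromosome 4, 116685599 to 116700000) encodes a peroxiredoxin that reduces peroxides with electrons from thioredoxin, and had the highest levels per length of the 9 genes in MDCs. In WT it was 119.6, 190.7 and 144.7 RPKM on day 0 and 239.9, 1101 and 1058 RPKM on day 3. In DKI it was 124.1, 182.3 and 151.0 RPKM on day 0 and 273.3, 1073 and 728.7 RPKM on day 3. The days did not overlap in either genotype, which was the case for 61.0% of genes tested in WT and 55.2% in DKI, and replicate 1 was far below the others on day 3. The log2 change was 2.13 (SE 0.58, limma adjusted p = 0.0215) in WT and 1.98 (SE 0.50, limma adjusted p = 0.0236) in DKI. The direction held without any single library, but the adjusted p rose to between 0.0536 and 0.0763 in WT without replicate 1 or 3 of day 0 or replicate 2 or 3 of day 3. In DKI it rose to between 0.052 and 0.0744 without any one of the libraries other than replicate 1 of day 3.

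*Gsr* (chromosome 8, 33653238 to 33698162), glutathione reductase, which returns oxidised glutathione to its reduced form, went the other way. WT monocytes had 213.2, 306.4 and 306.1 RPKM, and WT MDCs on day 3 had 23.6, 64.3 and 50.1 RPKM. DKI monocytes had 210.7, 262.3 and 346.0 RPKM, and DKI MDCs 28.2, 63.6 and 74.4 RPKM. Every MDC library lay far below every monocyte library. *Gsr* fell by 2.65 on the log2 scale in WT (SE 0.37, limma adjusted p = 0.00162) and by 2.36 in DKI (SE 0.39, limma adjusted p = 0.0068). On day 6 it remained at 21.5, 61.8 and 26.3 RPKM in WT and 37.6, 42.9 and 31.1 RPKM in DKI. The summed neutrophil markers were also lower in the MDC libraries than on day 0. Not every marker in the sum fell: in DKI, *Ly6g* and *Ltf* had means of 2.42 and 36.0 RPKM on day 0 and 9.39 and 38.2 RPKM on day 6. The part of neutrophils in the *Gsr* values was not tested.

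*Nqo1* (chromosome 8, 107388225 to 107403205), the quinone reductase that is the usual readout of NRF2, was near the bottom of the scale on day 0 and had the widest range of group means, 3.49 on the log2 scale. WT monocytes had 1.04, 4.84 and 0.752 RPKM (38 to 318 reads) and WT MDCs on day 3 had 7.11, 56.9 and 61.7 RPKM. DKI monocytes had 1.13, 4.97 and 1.0 RPKM and DKI MDCs 2.41, 49.6 and 41.0 RPKM. The days did not overlap in WT, whereas in DKI replicate 1 of day 3 lay below the highest day 0 library. The log2 change was 3.49 in WT (SE 0.85, limma adjusted p = 0.0142) and 2.72 in DKI (SE 1.06, limma adjusted p = 0.087). Without DKI day 3 replicate 1 the DKI change was 3.97 (limma adjusted p = 0.00448), and without WT day 3 replicate 3 the WT change was 2.98 (limma adjusted p = 0.0536). The change did not differ detectably between genotypes (interaction -0.77, SE 1.52, limma adjusted p = 0.869).

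*Gclm* and *Gclc* encode the modifier and catalytic subunits of glutamate-cysteine ligase, which makes the first step of glutathione synthesis. *Gclm* (chromosome 3, 122245487 to 122267215) had 13.8, 64.5 and 23.4 RPKM in WT on day 0 and 33.0, 142.9 and 164.2 RPKM on day 3, with a log2 change of 1.70 (SE 0.74, limma adjusted p = 0.0954). With the replicate block this WT change was called (SE 0.37, limma adjusted p = 0.0224), although the replicate numbers do not pair days 0 and 3. In DKI *Gclm* had 16.3, 65.8 and 23.8 RPKM and then 21.5, 158.7 and 126.5 RPKM, with a change of 1.33 (SE 0.83, limma adjusted p = 0.246). The groups overlapped in each genotype through replicate 1 of day 3. Without that library the *Gclm* change was 2.43 in WT (limma adjusted p = 0.0234) and 2.22 in DKI (limma adjusted p = 0.0309). Without WT day 0 replicate 2, the highest of its group, the WT change was 2.29 (limma adjusted p = 0.0494). *Gclc* (chromosome 9, 77754535 to 77794489) gave changes of 0.05 (SE 0.31) in WT and -0.62 (SE 0.51) in DKI, neither of which passed the test.

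*Slc7a11* (chromosome 3, 50364936 to 50499087) encodes xCT, the transporter that brings in cystine for glutathione synthesis. On day 3 it had 20.4, 70.7 and 61.3 RPKM in WT and 2.60, 31.1 and 19.9 RPKM in DKI. Against the day 0 values above, the log2 change was 2.51 in WT (SE 0.92, limma adjusted p = 0.0586) and 0.75 in DKI (SE 1.07, limma adjusted p = 0.605). Without WT day 0 replicate 1, the highest day 0 library of that genotype, the WT change was 3.35 (limma adjusted p = 0.0162), and without WT day 0 replicate 3 it was 1.52 (limma adjusted p = 0.101). The DKI change was 1.70 without DKI day 3 replicate 1 (limma adjusted p = 0.207) and -0.09 without DKI day 0 replicate 3 (limma adjusted p = 0.954). The size of the change within each genotype therefore moved with single libraries. These fits each left out a library of 1 genotype without its same-numbered partner. They do not decide whether the gap between the genotypes holds, which is described by pair below. *Txnrd1* (chromosome 10, 82833951 to 82897724), thioredoxin reductase, and *Srxn1* (chromosome 2, 152105524 to 152111376) had changes of 0.62 and 0.60 in WT and -0.19 and 0.13 in DKI, none of which passed the test. Over single libraries left out, *Txnrd1* lay between 0.24 and 1.05 in WT and between -0.65 and 0.43 in DKI. *Srxn1* lay between -0.39 and 1.62 in WT and between -0.90 and 1.16 in DKI.

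**Figure D2:**
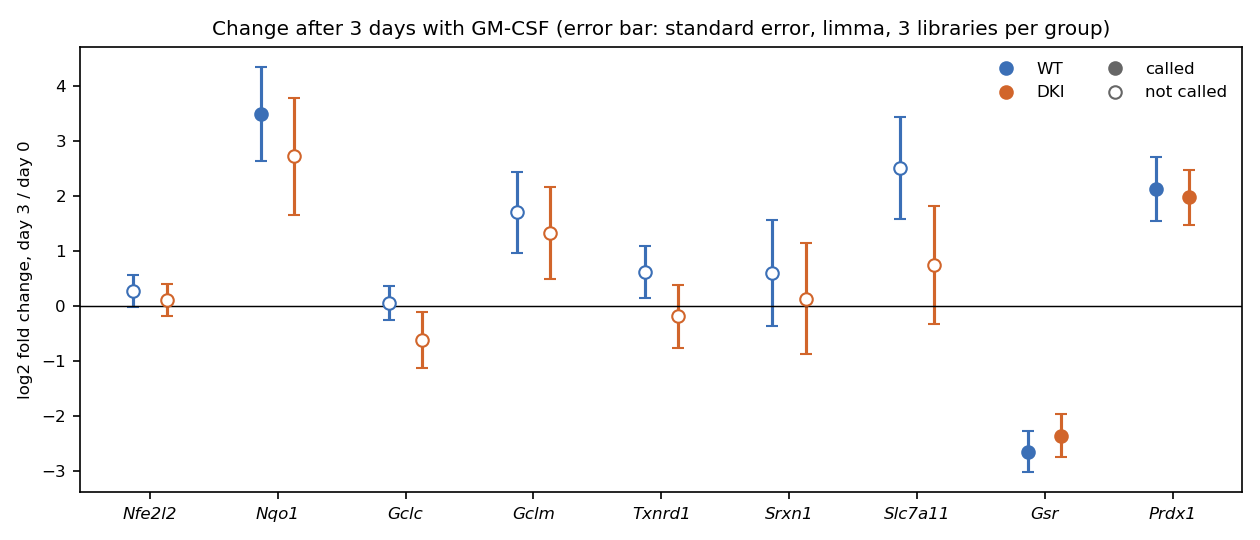
Log2 fold change of the 9 genes between day 0 and day 3 in WT (blue) and DKI (orange), with standard errors from limma on 3 libraries per group, filled where called. *Gsr* lies at -2.65 and -2.36, *Prdx1* at 2.13 and 1.98, and *Slc7a11* shows the widest gap between genotypes, 2.51 against 0.75.

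Between day 3 and day 6 no gene of the table was called by limma in either genotype (0% of 9613 in WT and 0% of 9540 in DKI, with 722 and 93 genes at an unadjusted p under 0.05). The changes of the 9 genes lay between -0.51 and -0.02 on the log2 scale in WT and between -0.67 and 0.20 in DKI. Nor did any gene's change over these days differ between genotypes (0% of 9985, 89 at an unadjusted p under 0.05). Replicate 2 had the highest level on day 6 in each genotype for *Nqo1*, *Gclm*, *Txnrd1*, *Srxn1*, *Slc7a11*, *Gsr* and *Prdx1*. *Prdx1*, for example, had 332.7, 1184 and 350.1 RPKM in WT and 371.6, 1110 and 448.6 RPKM in DKI.

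The third comparison asked how the target genes differ between WT and DKI MDCs. None of the 9 was called on day 3 or day 6 in the plain fit, where 7.42% of 9740 and 7.54% of 9842 genes were called. With the replicate block, none was called on day 3 (5.66% of genes), and *Slc7a11* and *Nqo1* were called lower in DKI on day 6 (4.41% of genes lower, 7.31% in either direction). The median difference of the 9 genes was -0.41 on day 3 and -0.19 on day 6 on the log2 scale, against -0.11 and -0.17 over all genes tested. 8 of 9 lay below 0 on day 3 and 6 of 9 on day 6, and of all genes tested 38.6% and 33.5% lay above 0. Without DKI day 3 replicate 1, the day 3 differences of *Nqo1*, *Gclm*, *Srxn1* and *Prdx1* in the plain fit turned to 0.58, 0.62, 0.09 and 0.43. Those fits kept the same-numbered WT library. In the blocked fit without replicate 1 of both genotypes, *Nqo1*, *Gclm* and *Prdx1* gave -0.39, -0.11 and -0.29. *Prdx1* gave 0.08 in the blocked fit without replicate 3.

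*Slc7a11* was the member that differed most. On day 6 it had 31.2, 72.5 and 32.0 RPKM in WT and 3.89, 19.4 and 13.2 RPKM in DKI, with at least 1078 reads in each library. All 3 DKI libraries lay below all 3 WT libraries on day 6, whereas the groups overlapped on day 3. Genotypes that did not overlap, in either direction, were found for 36.3% of genes tested on day 3 and 37.2% on day 6. Within pairs 1, 2 and 3 the WT level was 7.83, 2.27 and 3.08 times the DKI level on day 3 and 8.02, 3.73 and 2.42 times on day 6. Lower DKI values in all 3 pairs were found for 36.5% of genes tested on day 3 and 45.3% on day 6. The log2 difference was -1.77 on day 3 (SE 0.88, limma adjusted p = 0.263; with the block SE 0.31, adjusted p = 0.053). In the plain fit it was -0.82 without DKI day 3 replicate 1 (limma adjusted p = 0.417) and -2.40 without DKI day 3 replicate 2 (limma adjusted p = 0.181), the extremes over single libraries. On day 6 it was -1.93 (SE 0.59, limma adjusted p = 0.0915), and the block lowered the SE to 0.31 and the adjusted p to 0.0439.

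The difference stayed below 0 without any one pair, and the day 6 call was lost without pair 2 or pair 3. In the blocked limma fit without pair 1, the *Slc7a11* difference was -1.37 on day 3 (adjusted p = 0.0207) and -1.53 on day 6 (adjusted p = 0.045). Without pair 2 it was -2.07 (adjusted p = 0.113) and -1.97 (adjusted p = 0.0735), and without pair 3 it was -1.86 (adjusted p = 0.137) and -2.28 (adjusted p = 0.177). Over the whole table, these fits called 1046 genes without pair 1, 16 without pair 2 and 101 without pair 3 on day 3, and 406, 802 and 0 on day 6. Pair 1 of days 3 and 6 carries an earlier year in the library names than all other libraries and had the widest gap. Its DKI libraries also had higher neutrophil marker sums (409.7 and 535.3 RPKM) than its WT libraries (26.5 and 166.2 RPKM), as did the DKI libraries of pair 3, at 38.1 and 8.83 RPKM against 4.2 and 2.68 RPKM. In pair 2 the sums were 505.4 and 13.7 RPKM in DKI and 517.2 and 12.3 RPKM in WT. Their part in the *Slc7a11* values was not tested.

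On day 0 *Slc7a11* did not differ (-0.01, SE 1.18), and the change from day 0 to day 3 was 1.76 lower on the log2 scale in DKI than in WT. In the plain fit this interaction did not pass (limma adjusted p = 0.668, with 2.91% of genes and 0 members called), nor did it with the replicate block across days (adjusted p = 0.616) or with limma-voom on recovered reads, without or with that block (adjusted p = 0.719 and 0.632). With a block for the replicate number within each day, an alternative chosen after seeing the data, it was -1.76 (SE 0.38, limma adjusted p = 0.0385), and 10.2% of genes and 1 member were called. In the plain fit without single libraries the interaction lay between -2.60 and -0.77, with -0.81 without DKI day 3 replicate 1 (limma adjusted p = 0.912). *Slc3a2*, which encodes the partner chain of xCT, gave -0.24 on day 3 (SE 0.26, limma adjusted p = 0.597). On day 6 it had 100.5, 99.5 and 82.9 RPKM in WT and 110, 63 and 129.4 RPKM in DKI, so that the genotypes overlapped (0.04, SE 0.29, limma adjusted p = 0.941).

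*Nqo1* was lower in DKI in all 3 pairs on each of days 3 and 6. On day 6 it had 7.79, 74.3 and 19.1 RPKM in WT and 3.77, 44.7 and 7.26 RPKM in DKI, so that the genotypes overlapped and the WT level was 2.06, 1.66 and 2.63 times the DKI level within pairs. The difference on day 6 was -0.96 (SE 1.05, limma adjusted p = 0.578), and with the block the SE was 0.15 and the adjusted p = 0.0437. In the blocked fit without pair 1, 2 or 3 the difference was -1.0, -1.08 and -0.80, with limma adjusted p of 0.0902, 0.0576 and 0.21. These fits on 2 pairs called 406, 802 and 0 genes of the whole table. Over single libraries left out of the plain fit, the day 6 difference lay between -1.92 (without DKI replicate 2) and -0.13 (without WT replicate 2). On day 3 the difference was -0.67 (limma adjusted p = 0.766, with the block 0.168). In the plain fit it was 0.58 without DKI day 3 replicate 1 and -1.64 without WT day 3 replicate 1. With pair 1, 2 or 3 left out of the blocked fit, the day 3 difference was -0.39, -0.91 and -0.72 (limma adjusted p of 0.182, 0.259 and 0.338).

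*Srxn1* was lower in DKI in all 3 pairs on days 3 and 6, with mean differences of -0.41 and -0.19, and on day 3 its levels were 29.5, 97.6 and 85.3 RPKM in WT and 23.0, 76.8 and 58.2 RPKM in DKI. *Gclc* and *Txnrd1* were lower in all 3 pairs on day 3 and in 2 of 3 pairs on day 6, with mean differences of -0.67 and -0.72 on day 3. *Txnrd1* had 55.1, 134.4 and 107.6 RPKM in WT and 23.0, 106.2 and 69.9 RPKM in DKI on day 3. Its day 3 difference in the plain fit was -0.11 without DKI replicate 1 and -1.18 without DKI replicate 2. *Gclc* had 15, 21.9 and 15.7 RPKM against 4.27, 16.7 and 15.4 RPKM, and replicate 1 carried most of its difference. *Gclm*, *Gsr*, *Prdx1* and *Nfe2l2* differed in both directions among the pairs on each day with GM-CSF. None of these 7 genes passed the test in either fit.

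**Figure D3:**
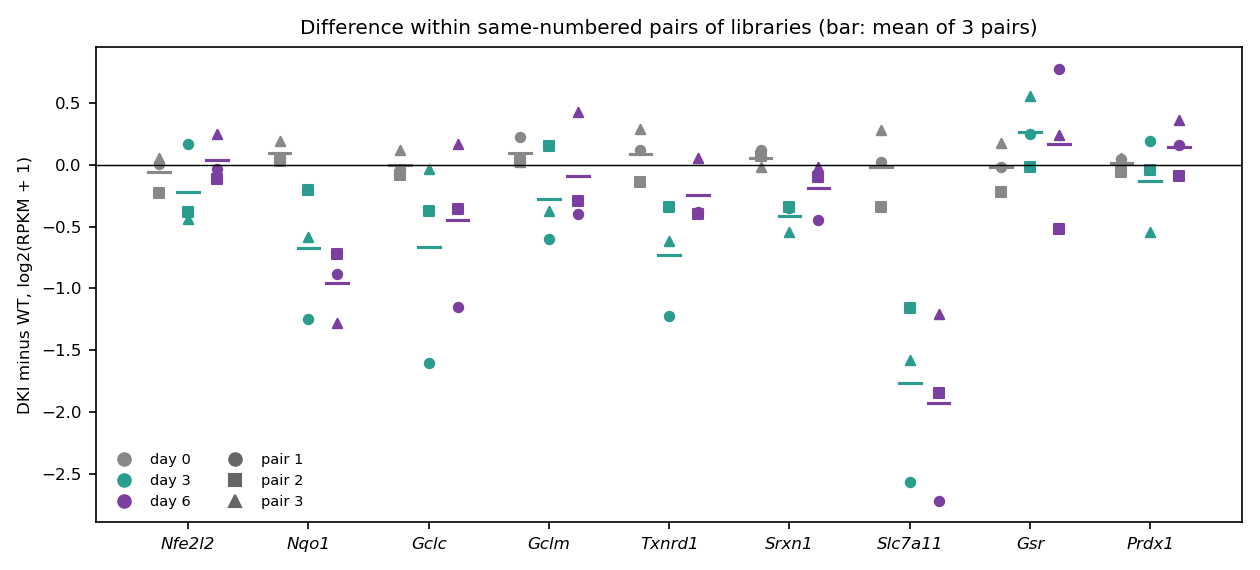
Difference DKI minus WT in log2(RPKM + 1) within each same-numbered pair of libraries, by gene and day (grey day 0, green day 3, purple day 6), with symbols for pairs 1 to 3 and a bar at the mean of 3 pairs. *Slc7a11* has means of -1.77 and -1.93 on days 3 and 6 and -0.01 on day 0, and *Nqo1* lies below 0 in all pairs of days 3 and 6.

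Genes around the pathway were described from lists of NRF2 regulators and partners (8 genes), other NRF2 targets (23 of 24 measured), glutathione and thiol enzymes (15 of 16 measured), superoxide and peroxide enzymes (4 genes) and the ATF4 amino acid response (12 genes). The genotype difference passed the plain limma test on day 3 for 1 of 8, 1 of 18, 3 of 15, 0 of 4 and 3 of 11 genes tested, and on day 6 for 1 of 8, 1 of 18, 0 of 15, 0 of 4 and 1 of 11. With the replicate block the counts were 1 of 8, 2 of 18, 4 of 15, 0 of 4 and 3 of 11 on day 3, and 1 of 8, 1 of 18, 3 of 15, 1 of 4 and 2 of 11 on day 6. Of all genes tested, 7.42% and 7.54% were called on days 3 and 6 in the plain fit and 5.66% and 7.31% with the block. List medians on the log2 scale were 0.09, -0.09, -0.42, -0.51 and -0.52 on day 3, against -0.11 over all genes. On day 6 they were 0.06, 0.14, -0.14, -0.56 and 0.02, against -0.17.

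Among regulators, *Maff*, a small MAF protein that can pair with NRF2, fell in DKI. It had 20.5, 30.8 and 20.5 RPKM in WT and 5.20, 6.07 and 4.25 RPKM in DKI on day 3, and 19.7, 17.3 and 14.6 RPKM against 4.33, 7.11 and 2.74 RPKM on day 6. All DKI libraries lay below all WT libraries. *Maff* fell by 2.00 on the log2 scale on day 3 (SE 0.21, limma adjusted p = 0.00692) and by 1.73 on day 6 (SE 0.29, limma adjusted p = 0.0273). The other small MAF genes of the list, *Mafg* and *Mafk*, did not fall, at 0.39 and 0.17 on day 3 and 0.42 and 0.21 on day 6, with no call. *Keap1* and *Bach1*, which encode the inhibitors of the pathway, gave 0.37 and 0.21 on day 3 and 0.17 and 0.20 on day 6, with no call. *Bach1* fell between day 0 and day 3 in WT (-1.23, SE 0.23, limma adjusted p = 0.00523) and in DKI (-1.01, SE 0.27, limma adjusted p = 0.028). It was among 4 of 8 regulators and partners called lower in WT and 5 of 8 in DKI. Of all genes tested, 22.8% and 21.1% were called lower.

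*Hmox1*, heme oxygenase 1, which NRF2 raises and BACH1 represses, was higher in DKI. On day 3 it had 39.6, 43.8 and 46.1 RPKM in WT and 196.1, 192.5 and 149.6 RPKM in DKI, and on day 6 it had 52.6, 79.6 and 57.6 RPKM in WT and 203.3, 185.9 and 182.7 RPKM in DKI. The genotypes did not overlap on either day, with a difference of 2.02 on day 3 (SE 0.17, limma adjusted p = 0.00477) and 1.6 on day 6 (SE 0.20, limma adjusted p = 0.0143). On day 0 the difference was 0.16 (SE 0.72). The macrophage marker sums were also higher in DKI MDCs, and their part in the *Hmox1* values was not tested.

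Of the thiol enzymes, *Glrx*, glutaredoxin, was higher in DKI on day 3, at 91.2, 75.9 and 82.9 RPKM against 35.5, 29.3 and 39.1 RPKM in WT. The difference was 1.25 (SE 0.17, limma adjusted p = 0.0131), and *Glrx* was the one listed gene whose change from day 0 to day 3 differed between genotypes in the plain fit (1.13, SE 0.22, limma adjusted p = 0.0204). On day 6 *Glrx* had 85.7, 63 and 39.3 RPKM in DKI and 26.1, 49.1 and 42.5 RPKM in WT, so that the genotypes overlapped and pair 3 ran the other way (0.64, SE 0.35, limma adjusted p = 0.279). *Ggct*, an enzyme of glutathione breakdown, fell by 1.48 on day 3 (SE 0.28, limma adjusted p = 0.0323), and *Sesn2*, a stress-induced sestrin, fell by 1.64 (SE 0.21, limma adjusted p = 0.0126). *Gss*, glutathione synthetase, was called lower in DKI only with the block, at -1.21 on day 3 (adjusted p = 0.0368) and -1.15 on day 6 (adjusted p = 0.0396), and was singled out, as were *Gstm1* and *Sod3*, after its values were seen. *Gss* had 9.42, 33.4 and 44.2 RPKM in WT and 4.67, 11.3 and 17.8 RPKM in DKI on day 3, lower in DKI in every pair. *Gstm1*, a glutathione transferase among the other NRF2 targets, was called higher in DKI on day 3 with the block (1.17, SE 0.14, limma adjusted p = 0.0294, without it 0.264). *Sod3*, the extracellular superoxide dismutase, was called lower on day 6 with the block (-2.11, SE 0.21, limma adjusted p = 0.0227, without it 0.0705). Its levels were low, 13.7, 4.99 and 2.97 RPKM in WT and 1.9, 0.213 and 0.24 RPKM in DKI. At such levels the 1 added before the log shrinks the difference. The block also called *Ggct* (-1.09, limma adjusted p = 0.0328) and *Sesn2* (-1.08, limma adjusted p = 0.0358) lower on day 6.

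In the ATF4 list, the amino acid transporter genes *Slc7a5* and *Slc1a4* were lower in DKI on day 3, while the list as a whole had 4 of 11 genes above 0 on day 3 and 6 of 11 on day 6. *Slc7a5* had 138.2, 98.9 and 159.6 RPKM in WT and 11.6, 28.3 and 37.9 RPKM in DKI on day 3 (-2.43, SE 0.44, limma adjusted p = 0.0277), and its difference on day 6 was -1.71 (SE 0.52, limma adjusted p = 0.0929). *Slc1a4* was low throughout, with 5.77, 5.44 and 5.69 RPKM against 0.738, 1.46 and 1.67 RPKM on day 3 (-1.56, SE 0.21, limma adjusted p = 0.0135), and its difference on day 6 was -1.68 (SE 0.31, limma adjusted p = 0.0312). *Sesn2* stands in this list too. *Ddit3*, a stress-induced transcription factor gene chosen after its values were seen, had the highest value of the list on day 6, 1.61 (SE 0.62, limma adjusted p = 0.154). *Atf4* itself had 46.2, 70.1 and 70.9 RPKM in WT and 60.3, 78.8 and 67.2 RPKM in DKI on day 3, a difference of 0.16 (SE 0.22, limma adjusted p = 0.692). Its day 6 difference was 0.53, with no call. On day 6, DKI replicate 3 had 142.9 RPKM of *Atf4* against 41.6 and 51.8 in DKI replicates 1 and 2. It also stood apart for *Asns* (59.1 against 5.99 and 6.1) and *Trib3* (57.2 against 2.11 and 2.87), but not for *Slc1a4* (2.11 against 0.941 and 2.84).

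**Figure D4:**
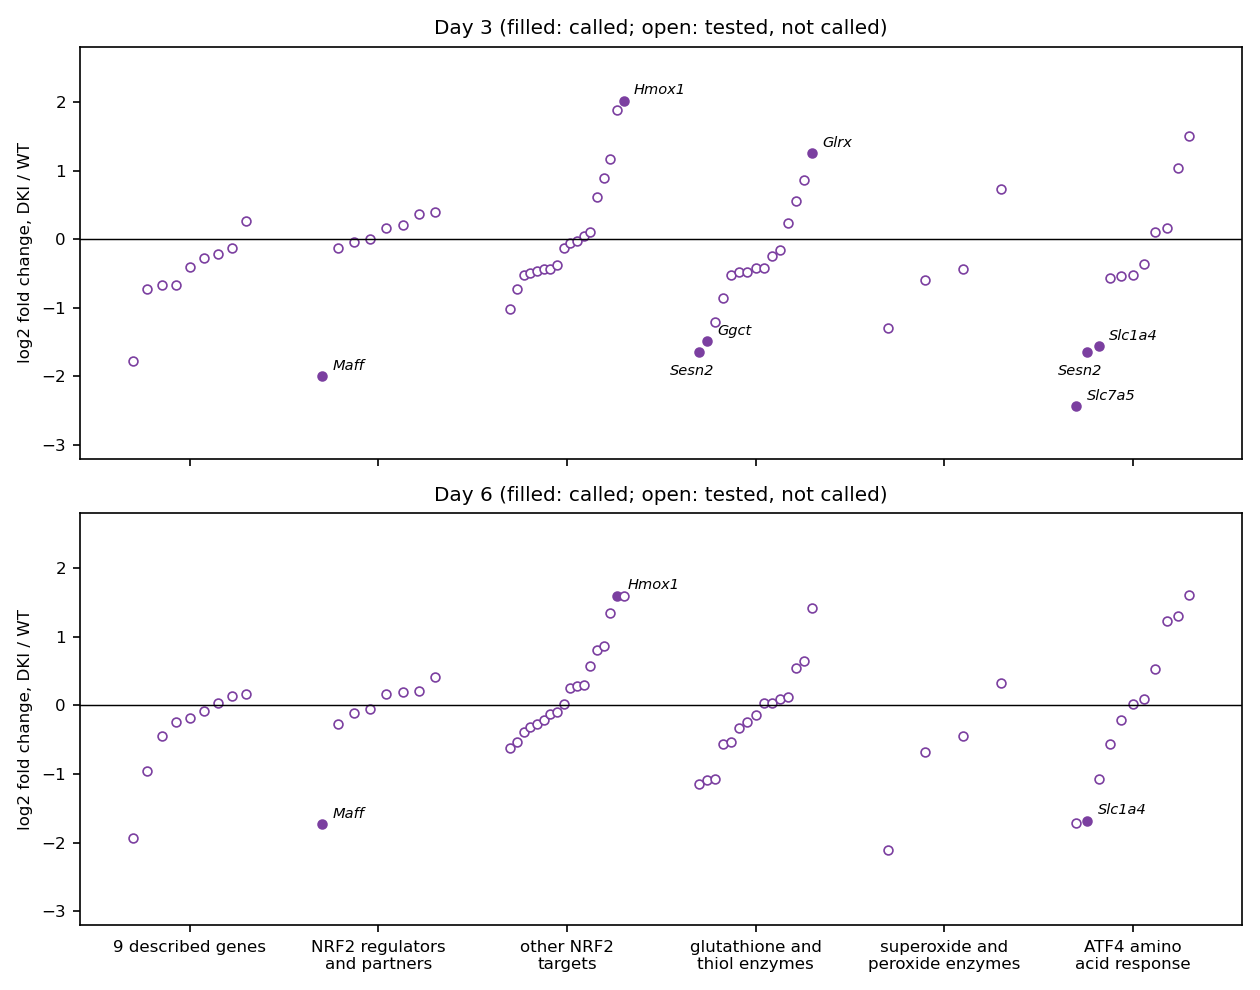
Log2 fold change of DKI against WT on day 3 (top) and day 6 (bottom) for each gene tested in the 9-gene set and the 5 wider lists, filled and named where called in the plain limma fit. *Hmox1* and *Glrx* are the called genes above 0, and *Maff*, *Ggct*, *Sesn2*, *Slc7a5* and *Slc1a4* those below, while no gene of the 9-gene set is filled.

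The 6 group means of each of 10417 genes were centred on their own average and compared with those of *Nfe2l2* and *Nqo1*. The genes nearest to *Nfe2l2* were *Mecr* (root mean square distance 0.03 on the log2 scale), *Cux1* (0.05), *Psmg3* (0.05), *Mtch2* (0.06) and *Hacl1* (0.06). Those nearest to *Nqo1*, the member with the widest range, were *Dmpk* (0.10), *Sqle* (0.14), *Dmwd* (0.15), *Lss* (0.20) and *Ckb* (0.20). *Sqle* and *Lss* encode enzymes of cholesterol synthesis. With 6 points a gene, this is a description of shape only.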

How the data were processed

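Single-end reads were mapped by the authors to mm10 with Subread and counted per RefSeq gene with featureCounts. The authors deposited RPKM values, 1 column per library. Versions, strandedness and the handling of multiply mapped reads are not given in the sources used here. The near copy *G6pd2* was therefore not used in place of *G6pdx*, which was not analysed here. The 10 genes and the wider lists were chosen with earlier results of these data known.

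Values of genes whose mean exceeded 2 RPKM in any group compared were fitted as log2(RPKM + 1) with limma 3.58.1 (eBayes with trend, R 4.3.3) and called at a Benjamini-Hochberg adjusted p under 0.05 over all genes tested and a change above 1.5-fold. The added 1 shrinks the fold changes of genes with low RPKM. The 9 listed genes all passed the filter. The wider-list genes named are those called in a genotype comparison or interaction (at most 4 per list and comparison) in the plain fit, plus *Keap1*, *Bach1*, *Hmox1*, *Slc3a2* and *Atf4*. *Gss*, *Gstm1*, *Sod3*, *Ddit3*, *Mafg*, *Mafk*, *Asns* and *Trib3* fall outside this rule and were chosen after their values were seen.

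Whole reads were recovered from the RPKM steps for 16247 of 16267 genes above 0 in at least 2 libraries (99.9%, tolerance 0.02 reads) and gave the depths and the limma-voom alternative. Deviations of same-numbered WT and DKI libraries from their group means correlated by 0.69 to 0.87 on day 0, 0.16 to 0.36 on day 3 and 0.34 to 0.41 on day 6 over 10417 genes. Numbers come from the sample labels, and library names of each pair are consecutive, so the numbers were taken to pair the genotypes within a day. They also paired days 3 and 6 (0.13 to 0.73) but not days 0 and 3 (-0.20 to 0.18). The steps were tested on simulated data. Alternatives were another pseudocount (0.1), no filter, median centring, all 18 libraries in one fit, the replicate block, limma-voom and leaving out each library. Figures used Python 3.11.15 and matplotlib 3.10.9.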

Additional observations from a re-analysis of the deposited data

Results flagged for a closer look

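*Slc7a11* stood out because its change between day 0 and day 3 differed between the genotypes. The interaction was -1.76 on the log2 scale (limma adjusted p = 0.0385) in the fit with a block for the replicate number within each day, which was added after seeing the data. Of the fits run, no other called it. The adjusted p was 0.668 in the plain fit, 0.616 with the replicate block across days, and 0.719 and 0.632 with limma-voom on recovered reads without and with that block. Without DKI day 3 replicate 1 the plain fit gave -0.81 (adjusted p = 0.912), and over all single libraries left out it gave -2.60 to -0.77. The pairs differed by 0.02, -0.34 and 0.28 on day 0 and by -2.57, -1.16 and -1.58 on day 3.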

How the results depend on the processing

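No called member value changed direction. Of the member values with 1 library left out of the plain fit, over all comparisons, 143 uncalled ones changed sign, 436 kept their direction and call, 5 gained a call and 10 lost one. *Slc7a11* and *Gclc* stayed below 0 on days 3 and 6 of DKI against WT in each of these fits. The replicate block moved the number of members called on day 6 from 0 to 2 (*Slc7a11* and *Nqo1*, also 2 with limma-voom and the block), and the block within each day moved the interaction from 0 to 1. The block, and limma-voom with the block, made *Gclm* pass in WT on day 3 (adjusted p = 0.0224 and 0.0177), where numbers do not pair the days. *Nqo1* passed in DKI with limma-voom and the block (adjusted p = 0.0189) and did not in WT with limma-voom (adjusted p = 0.053). Without the filter on low values, *Prdx1* missed the threshold (adjusted p = 0.0502 in WT and 0.0503 in DKI), leaving 1 member in DKI. No other member's call changed under these alternatives, and the cause was not tested.

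Over all genes, DKI against WT gave 0, 723 and 742 calls on days 0, 3 and 6. All 18 libraries in one fit gave 6, 1359 and 1573, no filter gave 358 and 187 on days 3 and 6, and limma-voom gave 461 on day 6. WT day 6 against day 3 gave 16 with all 18 libraries. The interaction of days 0 and 3 (297 calls) gave 93 with limma-voom, 189 with limma-voom and the block and 1040 with the block within each day. Leaving out 1 library gave 197 to 715 genes on day 3, 90 to 984 on day 6, 3363 to 4286 and 1976 to 3412 for WT and DKI day 3 against day 0, 0 to 1 for WT day 6 against day 3 and 125 to 336 for the interaction. Leaving out 1 pair from the blocked fit gave 0 to 20 genes on day 0 (15 without pair 2), 16 to 1046 on day 3 (101 without pair 3) and 0 to 802 on day 6 (406 without pair 1), and 0 to 1 members on days 3 and 6. Members called on day 3 against day 0 ranged from 1 to 4 in each genotype. With 3 libraries per group, the genotype differences of *Gclc*, *Txnrd1* and *Srxn1* passed the test in neither the plain nor the blocked fit.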
